A study of Homo sapiens with 2 samples.

Results

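Transcripts of 33 genes of sterol and fatty acid synthesis were followed in HEK-293 cells that received a miR-204 mimic. The genes were chosen by name, as the enzymes that build cholesterol and fatty acids, the proteins that regulate them, 1 sterol carrier and the 3 lipins, without a threshold on any measured value, although earlier results of these data were known when the list was made. They were read by 54 of the 41000 probes of a 2-colour whole genome array, and stand beside 30484 gene names on it. Of the 33 symbols, 31 are current and 2 are older names, SC4MOL for MSMO1 and SC5DL for SC5D. After a filter on low signal, 52 probes of 32 genes remained, and LPIN3 was the gene with no probe left.

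HEK-293 is a human embryonic kidney cell line, grown here in serum-containing medium. Cells were transfected at 75 nM with scrambled oligonucleotides (control) or with the miR-204 mimic and harvested after 48 h, and the question was which transcripts are lower when miR-204 is raised. RNA of both cultures was hybridized together on a first array, with miR-204 RNA in Cy5, and on a dye-swap array, with miR-204 RNA in Cy3. No source names a second transfection, so both arrays count as 1 replicate, conditions were not tested, and whether both arrays hold the same RNA extracts is not stated. As RNA came from whole cultures, a change in the share of cells and a change in RNA per cell cannot be told apart.

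The label of the cell line was read against its markers. Of 7 HEK-293 markers, NEFL, NEFM, VIM, KRT8, KRT18 and LHX1 each had a probe that the software called well above background in both RNAs on both arrays, and PAX2 had none in any channel. Of the markers of other cells, PTPRC, CD3E, ALB, PECAM1 and INS had no such probe in any channel. COL1A1 passed in every channel, with processed signals between 199 and 323, and a mean log2 ratio (miR-204 over control) of 0.04. The counted HEK-293 markers had a median log2 ratio of -0.18, 4 of 6 were lower on both arrays (NEFL, NEFM, VIM and LHX1), where 22.8% of all gene names were, and NEFM had the lowest mean, -0.63. The part of either marker list in the results was not tested.

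Cholesterol is built from acetyl-CoA, first to mevalonate and isoprenoid units, then to squalene, which is closed to lanosterol and trimmed to cholesterol. Fatty acids are built from the same precursor by acetyl-CoA carboxylase and fatty acid synthase. Both routes are switched on by the SREBP transcription factors, which SCAP escorts out of the endoplasmic reticulum when sterols are scarce and which the INSIG proteins hold back when sterols are plentiful.

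The agent of the experiment is a short RNA that pairs with messages through its seed. The mature arms of miR-204 are shown because the mimic stands for this miRNA, with the seed, bases 2 to 8 from the 5′ end, in capitals (RefSeq, GRCh38.p14, minus strand, chr9:70810031-70810052 and chr9:70809993-70810013). Neither the labels nor the methods state which arm the mimic holds.
hsa-miR-204-5p: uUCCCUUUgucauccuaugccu
hsa-miR-204-3p: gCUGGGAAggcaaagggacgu
The seeds of the arms differ, UCCCUUU for the 5p arm and CUGGGAA for the 3p arm. Matches to them in the messages of the 33 genes were not searched for.

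Promoters of the pathway carry short boxes through which sterols act, the sterol regulatory element for SREBP and the CCAAT box for its partner NF-Y. RefSeq promoters (GRCh38.p14, 1 start per gene) matched 28 of the 33 genes, and ACAT2, FDFT1, SQLE, FASN and LPIN3 had no entry. In the 250 bases before the start, CCAAT on either strand was found in 17 of the 28 promoters, or 60.7%, against 33.0% of 27305 promoters. The sterol regulatory element TCACNCCAC on either strand was found in 1 of the 28, that of SREBF2, against 0.875% of all promoters. The 2 motifs do not overlap in the promoters shown. A match is a description of the letters and not a site of binding. Only these exact words were searched for in the 250 bases, so a promoter without a match may still hold an element. The promoters printed are those of INSIG1 and HMGCS1, on which results below turn, and that of SREBF2, which holds the match to TCACNCCAC. Capitals mark CCAAT read on the other strand (ATTGG) and, in SREBF2, also TCACNCCAC. The INSIG1 promoter lies at chr7:155297628-155297877 (plus strand), the HMGCS1 promoter at chr5:43313413-43313662 (minus strand) and the SREBF2 promoter at chr22:41832855-41833104 (plus strand).
INSIG1: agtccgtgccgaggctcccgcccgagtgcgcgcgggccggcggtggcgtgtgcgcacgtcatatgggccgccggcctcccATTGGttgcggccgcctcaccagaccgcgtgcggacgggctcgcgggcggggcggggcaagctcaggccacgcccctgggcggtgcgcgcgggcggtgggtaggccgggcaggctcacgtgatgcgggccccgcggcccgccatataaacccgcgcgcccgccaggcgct
HMGCS1: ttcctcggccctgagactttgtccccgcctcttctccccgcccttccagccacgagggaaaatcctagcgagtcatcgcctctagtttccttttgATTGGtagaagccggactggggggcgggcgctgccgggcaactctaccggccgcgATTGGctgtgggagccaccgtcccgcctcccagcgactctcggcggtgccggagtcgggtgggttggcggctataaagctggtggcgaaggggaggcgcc
SREBF2: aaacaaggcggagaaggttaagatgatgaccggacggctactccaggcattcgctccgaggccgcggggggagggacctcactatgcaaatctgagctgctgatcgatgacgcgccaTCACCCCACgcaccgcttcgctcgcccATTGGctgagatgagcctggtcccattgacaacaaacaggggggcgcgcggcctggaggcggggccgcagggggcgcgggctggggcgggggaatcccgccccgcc
The INSIG1 promoter holds 1 CCAAT box and the HMGCS1 promoter holds 2. Of the 11 genes with a promoter that were lower on both arrays, 7 hold a CCAAT box, and of the other 17 genes 10 do.

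Values below are of 2 kinds. Processed signals are intensities after background and dye correction by the scanner software, given in the order control and miR-204 on the first array, then control and miR-204 on the dye-swap array. Log2 ratios are miR-204 over control after quantile normalization of the 4 channels, so that a negative value means less transcript in miR-204 cells. A probe was counted when the control RNA, or the miR-204 RNA, was well above background on both arrays, and a gene's value is the mean of its counted probes. Probes spotted 10 times gave a scale for the noise within an array. Their log2 ratio varied between spots by a median SD of 0.030 (first array) and 0.032 (dye-swap array) at signals over 1000, by 0.067 and 0.068 at 100 to 1000, and by 0.234 and 0.216 under 100. The difference between the arrays was larger, with a median of 0.31 over the members and 0.31 over all 18585 gene names counted. Across the 23159 probes that passed this mark in every channel, the ratios of the arrays had a Pearson correlation of -0.0765, a description across probes of the same 2 arrays.

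Most members were lower in miR-204 cells in the mean, by small amounts. The median log2 ratio of the 32 genes was -0.14, beside 0.0022 over all gene names, and 28 of the 32 means were below 0, beside 49.6% of all gene names. On both arrays 15 of the 32 (46.9%) were lower, where 22.8% of all gene names were, and 2 were higher, where 24.5% were. By the mean of both arrays with the same sign on each, 3 members were lower by 1.5-fold (background 2.06%), HMGCS1, INSIG1 and LPIN2, and 0 were higher (background 1.44%). At 2-fold 1 was lower, HMGCS1 (background 0.452%), and 0 were higher (background 0.151%). HMGCS1 and LPIN2 reached these limits through probes that were dim in the miR-204 RNA. With the stricter demand that a probe pass in all 4 channels, the median of the 32 genes was -0.12, beside 0.01 over 17230 gene names. Of these 32, INSIG1 alone passed 1.5-fold, on the lower side (background 0.992% lower and 1.33% higher). On both arrays 14 of the 32 were lower (background 21.3%) and 2 were higher (background 25.6%). Over all counted probes the signs of the arrays were opposite for 15 of the 32 genes. Of these, 9 were below 0 on the first array and above 0 on the other. With the stricter demand they were opposite for 16, again with 9 that way. Opposite signs were no rarer among all gene names, of which 22.8% were lower and 24.5% higher on both arrays. With the stricter demand these shares were 21.3% and 25.6%.

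**Figure D1:**
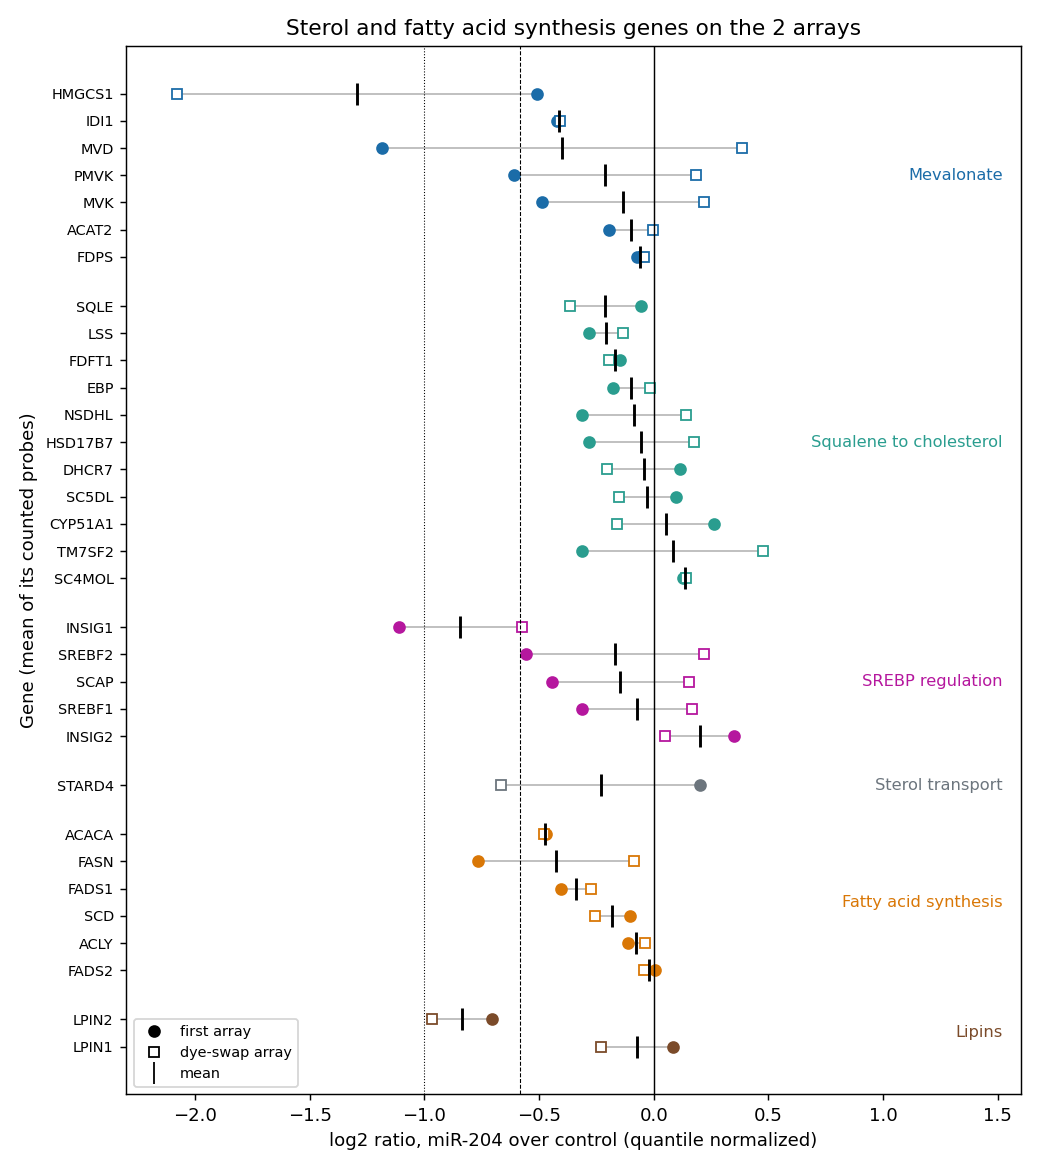
Each row is 1 of the 32 counted genes, grouped by role. Filled circles are log2 ratios (miR-204 over control) from the first array, open squares those from the dye-swap array and black ticks their mean, with a dashed line at 1.5-fold lower and a dotted line at 2-fold lower. INSIG1, IDI1 and ACACA sit left of 0 on both arrays, while MVD, PMVK, SCAP and SREBF2 lie on opposite sides of 0.

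Over probes that passed in all 4 channels the lowest mean of the 32 members was that of INSIG1, which encodes the membrane protein that retains SCAP and SREBP in the endoplasmic reticulum and is itself a classical SREBP target. Its probe (A_23_P22027, chr7:154731004-154731063 on hg18) read 1492 in control and 686 in miR-204 RNA, then 872 and 590.5 after the dye swap. Control exceeded miR-204 on both arrays. The log2 ratios were -1.11 and -0.57, a mean of -0.84, which is 0.557 of the control level. This was place 146 from the lowest of 18585 gene names. The arrays differed in size but not in direction, and the mean stayed between -0.85 and -0.80 over the main setting and the 10 alternatives that use both arrays. With 1 probe, well above background in every channel, the signal filters and the choice of probe could not move this mean.

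INSIG2, the related retention protein that is not known as an SREBP target, lay on the other side of 0. Its first probe (A_23_P102454) read 436 and 573, then 312 and 321, and its second (A_24_P944458) read 386 and 473, then 269.7 and 282. Both probes were higher in miR-204 RNA on both arrays, by little on the dye-swap array. The gene's log2 ratios were 0.35 and 0.05, a mean of 0.20, the highest of the 32 members in the main setting.

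SREBF1 and SCAP had opposite signs on the arrays. SREBF1, which encodes the factor for fatty acid genes, had a bright probe (A_23_P129786) with signals of 4006 and 3703, then 2583 and 2718, and a dimmer one (A_24_P390784) with 197 and 138, then 101 and 122. Both probes were below 0 on the first array and above 0 after the swap, and the gene's ratios were -0.31 and 0.17, a mean of -0.07. SCAP, the escort protein, read 6707 and 4876, then 4235 and 4754. Its log2 ratios of -0.45 and 0.16 have opposite signs, and the mean was -0.15.

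The 2 probes of SREBF2, which encodes the factor for cholesterol genes, disagreed. The probe at chr22:40632145-40632204 (hg18, A_23_P419602) read 836 and 961, then 648 and 746, and was higher in miR-204 RNA on both arrays, with log2 ratios of 0.23 and 0.20. The probe at chr22:40632497-40632556 (hg18, A_23_P166502) read 259 and 101, then 133 and 158, with log2 ratios of -1.34 and 0.24. The probe means differed by 0.76, and the gene mean of -0.17 describes neither. With the brightest probe alone the gene mean was 0.21.

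In the mevalonate group all 7 genes had a mean below 0, beside 49.6% of all gene names. Of these, ACAT2, HMGCS1, IDI1 and FDPS were lower on both arrays (57.1%, beside 22.8% of all gene names). The group's median log2 ratio was -0.21. Taken per array, the median was -0.49 before the swap of dyes and -0.0015 after it, so it lay below 0 mainly through the first array. HMGCS1, the synthase that condenses acetyl-CoA with acetoacetyl-CoA to HMG-CoA, has 2 probes. The bright probe (A_24_P63522, chr5:43325874-43325933 on hg18) read 2185 and 1964, then 1562 and 1001, so miR-204 was lower on both arrays and mainly on the dye-swap array. Its log2 ratios were -0.13 and -0.64, a mean of -0.38. The dim probe (A_23_P133263, chr5:43326838-43326897 on hg18) read 67.5 and 36.6, then 44.7 and 5.98. The last value, miR-204 with swapped dyes, was not well above background and is a stand-in set by the software, and it gave a log2 ratio of -3.52 beside -0.89 on the first array.

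The dim probe thus set the gene mean of HMGCS1 at -1.29. Without it the mean was -0.38, and with normexp background correction the bright probe was at -0.39 and the dim one at -0.52. Both probes were lower in miR-204 RNA on both arrays under each of these settings. The 2-fold call of HMGCS1 therefore rests on the dim probe.

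IDI1, the isomerase that interconverts the isoprenoid units, repeated closely between the arrays. Its probe (A_24_P103886, chr10:1076619-1076678 on hg18) read 1908 and 1414, then 1112 and 844. The log2 ratios were -0.42 and -0.41, which is 0.751 of the control level in the mean, and the mean lay between -0.43 and -0.41 over the 11 settings. Here too there was 1 probe, which passed in every channel, so signal filters and probe choice could not move the mean. FDPS, which joins these units to farnesyl diphosphate, was much nearer to 0, with ratios of -0.07 and -0.04. ACAT2, the thiolase at the entry of the pathway, had ratios of -0.19 and -0.0015, the second hardly below 0. Its brighter probe (A_23_P31135) had opposite signs, -0.31 and 0.07. The gene was lower on both arrays in 5 of the 11 settings.

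The kinases MVK and PMVK and the decarboxylase MVD, which turn mevalonate into isopentenyl diphosphate, had opposite signs on the arrays. MVD was the widest, with log2 ratios of -1.19 and 0.38 and signals of 190.4 and 83.2, then 84.5 and 111. MVK had gene ratios of -0.49 and 0.22, and PMVK of -0.61 and 0.18. In each of these 3 genes the RNA labelled with Cy5 had the lower normalized level on both arrays, and what dye contributes was not tested.

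From squalene to cholesterol the differences were small. The median log2 ratio of the 11 genes was -0.05, with means from -0.21 to 0.14. FDFT1, SQLE, LSS and EBP were lower on both arrays (36.4%, beside 22.8% of all gene names). SQLE, the epoxidase that makes the first oxygenated intermediate, read 2173 and 2060.2, then 1359.7 and 1049. Its log2 ratios were -0.06 and -0.37, a mean of -0.21. FDFT1, squalene synthase, was more even between the arrays, with -0.15 and -0.19. LSS, the cyclase that forms lanosterol, had 4 counted probes with means between -0.40 and -0.08, all below 0, although 2 of them were above 0 on the dye-swap array.

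SC4MOL, the methyl sterol oxidase, was the gene of this group that was higher on both arrays. Its signals were 114 and 124, then 50 and 55.4, with log2 ratios of 0.13 and 0.14. TM7SF2, a sterol reductase, had a bright probe at 8068 and 8105, then 5516 and 6646, and a dimmer one at 299 and 192, then 142 and 231. The dimmer probe changed sign between the arrays, from -0.64 to 0.69, and the gene mean was 0.08. CYP51A1, the lanosterol demethylase, had probes at 1140.0 and 1532, then 839 and 836, and at 396 and 421, then 272 and 222, and its gene ratios of 0.26 and -0.16 gave a mean of 0.05. The remaining 5 genes of the group (NSDHL, HSD17B7, EBP, SC5DL and DHCR7) had means between -0.10 and -0.03.

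**Figure D2:**
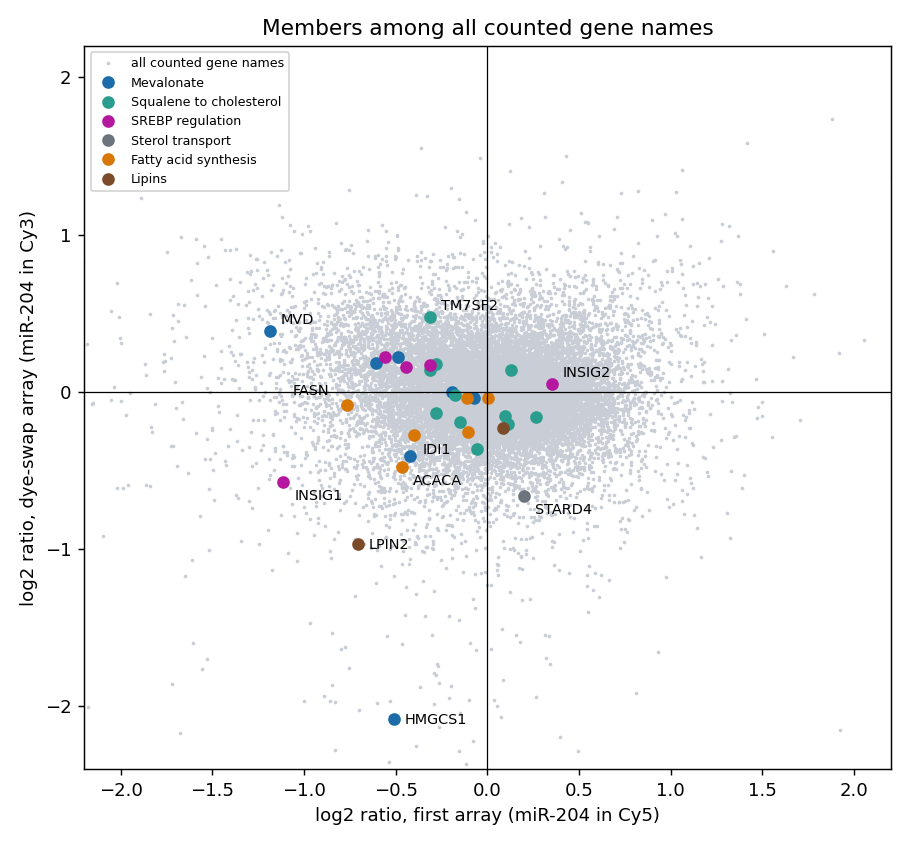
Each point is 1 gene name, with its log2 ratio (miR-204 over control) from the first array on the x axis and from the dye-swap array on the y axis. Grey points are all counted gene names, of which 20 fall outside the axes, and coloured points are the 32 members by role. Of the members, 15 lie below 0 on both axes and 2, SC4MOL and INSIG2, above 0 on both.

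STARD4, which carries cholesterol between membranes, read 123 and 142, then 107 and 67.7. Its log2 ratios of 0.20 and -0.66 have opposite signs, with a mean of -0.23.

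Among the fatty acid genes all 6 means were below 0, beside 49.6% of all gene names, with a median log2 ratio of -0.26. On both arrays 5 genes were lower (83.3%, beside 22.8% of all gene names). With the brightest probe of each gene, FADS1 and SCD were no longer lower on both arrays. ACACA, the acetyl-CoA carboxylase that commits carbon to fatty acids, was even between arrays and probes. One probe (A_23_P141434, ends at chr17:32518487-32520044 on hg18, a span longer than the probe itself) read 113 and 76.0, then 69.0 and 49.6, and the other (A_32_P215318, chr17:32761350-32761409) read 98.1 and 74.8, then 81.8 and 59.9. Control exceeded miR-204 in each of the 4 pairs. The gene's log2 ratios were -0.47 and -0.48, which is 0.721 of the control level in the mean. The signals were low, and with normexp correction the probes were at -0.30 and -0.25.

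FASN, fatty acid synthase, read 393 and 231, then 232 and 219.6. Its log2 ratios were -0.77 and -0.09, so the mean of -0.43 came mainly from the first array. FADS1, the delta-5 desaturase, had 1 probe at 4036 and 1929.6, then 2592 and 2357, and another at 3208 and 3738, then 2494 and 1858. The probes had means of -0.59 and -0.09, and the second was higher in miR-204 RNA on the first array.

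SCD, the stearoyl-CoA desaturase, has 3 probes. They read 787 and 603, then 562 and 488 (A_23_P63618, chr10:102110682-102110741), 2003 and 2363, then 1604 and 1319 (A_32_P163858, chr10:102113907-102113966), and 47.0 and 40.4, then 31.2 and 25.0 (A_24_P626920, chr10:102097940-102097999). On the dye-swap array all 3 were lower in miR-204 RNA, and on the first array the brightest was higher. The gene ratios were -0.11 and -0.25, a mean of -0.18. ACLY, the citrate lyase that supplies acetyl-CoA, had ratios of -0.11 and -0.04. The counted probe of FADS2, the delta-6 desaturase, read 1914 and 1885, then 1383 and 1335, a mean log2 ratio of -0.02, and its other probe was well above background in 1 of the 4 channels and was not counted.

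**Figure D3:**
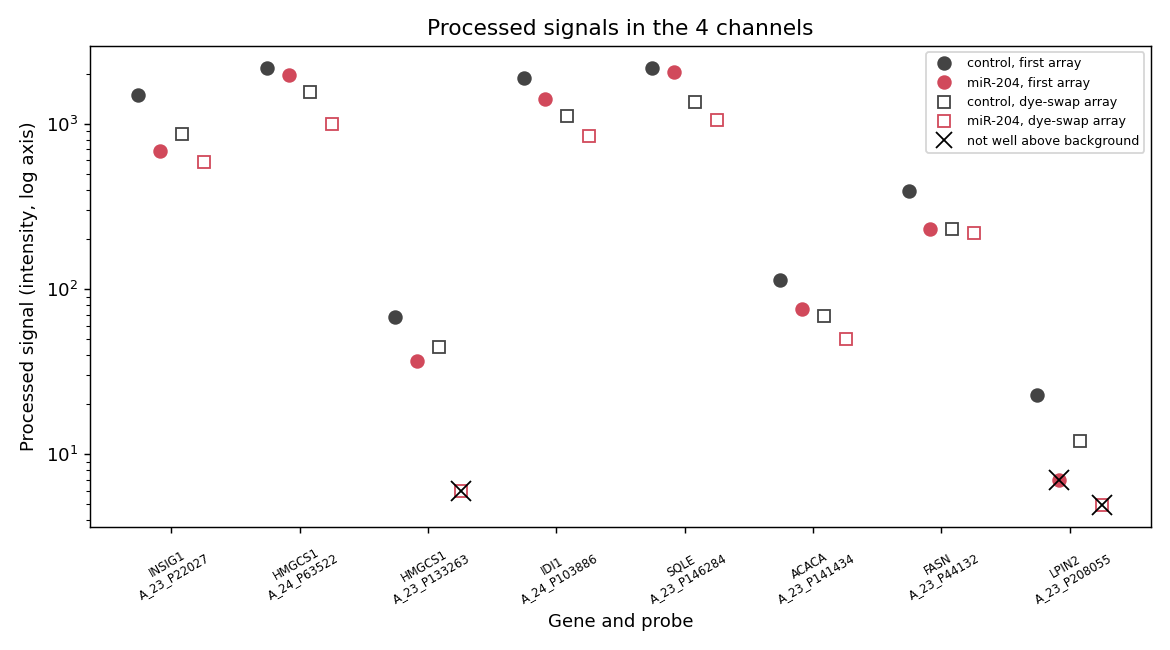
Processed signal (log axis) of 8 probes of INSIG1, HMGCS1, IDI1, SQLE, ACACA, FASN and LPIN2 in the 4 channels, with control in grey and miR-204 in red, the first array as filled circles and the dye-swap array as open squares. Crosses mark signals not well above background, which are 1 of HMGCS1 and 2 of LPIN2. The miR-204 signal is below the control signal in each pair of channels shown, but the probes are a selection, and the brighter LPIN2 probe, not drawn, read 299.8 in control and 346 in miR-204 RNA on the first array.

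The lipins dephosphorylate phosphatidate in the making of triglycerides and also act in the nucleus on lipid genes. LPIN1 had a probe at 1945 and 2288, then 1603 and 1376, and a dimmer one at 56.1 and 53.0, then 52.0 and 43.9. Its gene ratios of 0.08 and -0.23 have opposite signs, with a mean of -0.07. The brighter probe of LPIN2 (A_24_P301557, chr18:2907273-2907332 on hg18) read 299.8 and 346, then 232 and 230.3, with log2 ratios of 0.21 and -0.02. The other probe of LPIN2 (A_23_P208055) read 22.9 and 6.96, then 12 and 4.88, and neither miR-204 signal was well above background. For that probe a lower bound of the fold was below 1, so no fold is given, and the gene mean of -0.84 with this probe was 0.09 without it. LPIN3 read between 6.46 and 8.51, and no channel was well above background.

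Of 40 other genes of lipid metabolism, fixed as a list of sterol synthesis, sterol uptake and regulation, and fatty acid and glycerolipid genes, 38 were counted. Their median log2 ratio was -0.03, 10 were lower on both arrays (26.3%) and 5 were higher, beside 22.8% and 24.5% of all gene names.

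**Figure D4:**
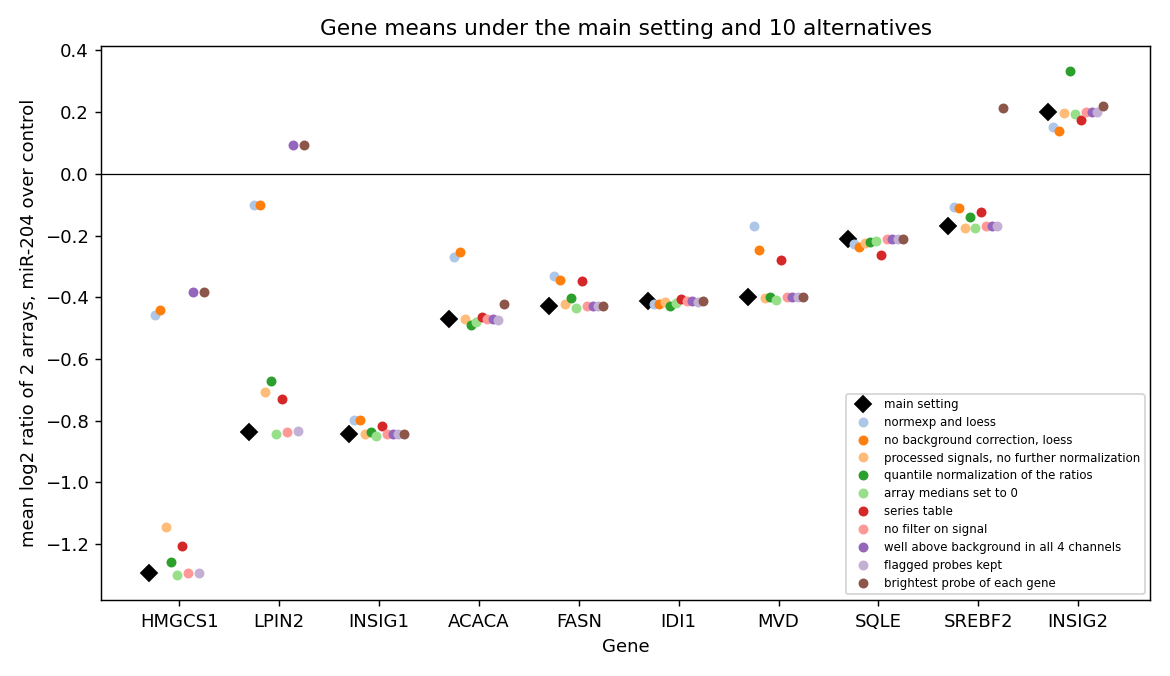
Mean log2 ratio of miR-204 over control for 10 genes under the main setting (black diamonds) and 10 alternatives in background correction, normalization, filter and probe choice (coloured circles). INSIG1 (-0.85 to -0.80) and IDI1 (-0.43 to -0.41) barely move, HMGCS1 moves from -1.30 to -0.38, and LPIN2 and SREBF2 cross 0. INSIG1 and IDI1 have 1 probe each, so signal filters and probe choice cannot move them.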

How the data were processed

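RNA of HEK-293 cells transfected with scrambled oligonucleotides or a miR-204 mimic was read on 2 arrays of 2 colours, counted as 1 replicate, since no source names separate extracts. The authors extracted the data with Feature Extraction 9.5.3.1. The deposited processed signals are intensity values, corrected for background and dye. Signals too dim to measure hold a surrogate from the software, so folds of dim probes can be overstated. The deposited log10 ratio of each spot was not analysed here, nor was its p-value. The authors' deposited series table of log2 ratios was an alternative. Control spots and 128 flagged probes were left out. Spots of a probe were averaged and log2 processed signals quantile normalized over the 4 channels (limma 3.58.1, R 4.3.3), and 25270 probes were counted. The series has 1 replicate, so no test of the conditions was made. As alternatives, the methods' t-test and limma were run over arrays, which does not compare the conditions. The steps were tested on simulated data with larger changes than any gene mean given here, and without a dye effect or surrogate signals. That test does not cover small changes or dim probes. Positions are those of the files (hg18). The number of arrays limits the precision. Members and lists were chosen with earlier results of these data known. Given in full are the 5 lowest and 5 highest members, those past 1.5-fold, those whose probes differ by 0.5 or more, and main regulators and enzymes. FADS1 (probes 0.496 apart), IDI1, MVD, STARD4 and the promoters shown were chosen after their values were seen. Alternatives changed the background correction, normalization, filter, flags, gene summary, arrays, threshold and test. Some genes of the lists of other lipid genes and markers are not reported here.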

Additional observations from a re-analysis of the deposited data

How the results depend on the processing

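The median log2 ratio of the members stayed below 0 in every setting run, between -0.15 and -0.08 with both arrays, and between -0.28 (first array) and -0.06 (dye-swap array) with 1 array. The counts of members lower on both arrays stayed between 10 of 32 (brightest probe, background 21.9%) and 16 of 33 (no filter on signal, background 18.9%). Over the settings without a test this background lay between 18.9% and 25.9%. HMGCS1 was no longer lower by 2-fold, and the count was 0, with normexp and loess, without background correction, over probes that passed in all 4 channels, with the brightest probe of each gene and with 2-fold asked of each array. In the first 4 of these settings 1 member, INSIG1, remained lower by 1.5-fold in place of 3. The backgrounds were 0.334%, 0.355%, 0.992% and 2.09%, in that order. On the first array alone 2 members were lower by 2-fold, MVD and INSIG1 (background 2.06%), and 5 by 1.5-fold (background 8.39%). On the dye-swap array alone 1 was lower by 2-fold, HMGCS1 (background 0.759%), and 3 by 1.5-fold (background 3.44%). Over arrays counted as 1 replicate, the methods' t-test left 0 members lower by 2-fold, unadjusted, where FDFT1 and INSIG1 had p under 0.05, and 0 after Benjamini-Hochberg adjustment. limma left 2, unadjusted, HMGCS1 and LPIN2 by their dim probes, and 0 after adjustment. Members higher on both arrays numbered 1 with quantile normalization of the ratios (background 17.4%) and 4 with the brightest probe (background 25.7%). LPIN2 turned to 0.0928 over probes that passed in all 4 channels and with the brightest probe, which leave out its dim probe. Of the other values of single members, 362 moved by less than that gene's own spread between arrays and 20 by more. This spread is widest for genes whose arrays disagree. By its definition, a value from 1 array alone cannot move by more than it, so the count is not a measure of stability. limma used the ratio of each array, which pairs its channels, while the t-test took the channels as unpaired. No pairing of replicates was possible because there is 1 replicate.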

Other observations

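Beyond sterols, 19 of 20 further genes of fatty acid and glycerolipid metabolism were counted, with a median log2 ratio of -0.15 and means from -0.41 to 0.46. On both arrays 6 of them were lower (31.6%, beside 22.8% of all gene names) and 1 higher (beside 24.5% of all gene names). Over probes that passed in all 4 channels the median of 17 genes was -0.07, and 4 (23.5%, beside 21.3%) were lower on both arrays. The genes named here were chosen after their values were seen. ELOVL6, the elongase that extends palmitate, read 1648 and 1234 on the first array and 1260.2 and 974 on the dye-swap array, with log2 ratios of -0.41 and -0.37 that nearly matched. ACSL3, which activates fatty acids to their CoA esters, had 2 probes, both lower in miR-204 RNA on both arrays, and a gene mean of -0.24. ACSS2, which makes acetyl-CoA from acetate, had probes at -0.03 and -0.51 that differed between each other. LBR, which has sterol reductase activity and anchors chromatin at the nuclear envelope, was higher in miR-204 RNA on both arrays, with ratios of 0.63 and 0.17.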
